A study of Mus musculus with 20 samples.

Results

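The levels of 9 genes of interleukin-6 signalling were followed in mouse liver through trauma, hemorrhagic shock and resuscitation. They were the ligand Il6, the receptor chains Il6ra, Il6st, Osmr and Lifr, the kinase Jak2, the transcription factor Stat3, the feedback inhibitor Socs3 and the nuclear factor Bcl3. A probe set was taken if the platform annotation gave it 1 of these 9 symbols, which found 23 probe sets of 45101, and all 9 genes were among the 12832 genes bright enough to be tested, of 18193 on the array.

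RNA of whole liver was hybridised to 20 Affymetrix arrays of male C57BL/6 mice aged 8 to 12 weeks. The groups were non-manipulated control animals (5 arrays), minor trauma (3 arrays), 1.5 h of hemorrhagic shock together with severe trauma (4 arrays, called the shock group), and the same injury followed by 1 h (4 arrays) or 4.5 h (4 arrays) of resuscitation. The labels and protocols used here do not define the minor trauma or its sampling time. The labels number the arrays within each group without saying that each came from a different animal, so the p-values measure the spread between these samples, and 3 to 5 arrays a group limit the precision of every value.

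Interleukin-6 is a cytokine that macrophages, endothelium and other cells release after tissue injury, and hepatocytes are among its main targets. It binds the receptor chain encoded by Il6ra, and the complex pairs with gp130, encoded by Il6st, which is also shared by the receptors for oncostatin M and leukemia inhibitory factor. Kinases of the Janus family, Jak2 among them, then phosphorylate STAT3, which enters the nucleus and turns on genes of the hepatic acute phase response as well as Socs3, whose product binds gp130 and the kinases and damps the signal.

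The upstream sequences of Il6 and Socs3 are shown because these were the 2 genes of the 9 that were called higher in shock. Both come from the RefSeq promoter table (build GRCm38.p6), in which all 9 genes had an entry and Lifr had 2, and capitals mark the matched motifs. The Il6 stretch lies just before the gene's first base on the plus strand of chromosome 5, at chr5:30012864-30013109, and holds an AP-1 motif and an NF-kB motif.
Il6: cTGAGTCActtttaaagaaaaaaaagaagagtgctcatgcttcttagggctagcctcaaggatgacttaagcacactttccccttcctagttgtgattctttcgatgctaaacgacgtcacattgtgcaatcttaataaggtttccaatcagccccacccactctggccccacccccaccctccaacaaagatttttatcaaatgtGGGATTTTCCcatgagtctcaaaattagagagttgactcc
Socs3: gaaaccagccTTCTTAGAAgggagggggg
The Socs3 stretch lies at chr11:117969502-117969530 on the minus strand, before the start given in the promoter table. The annotated gene reaches 970 bases upstream of that start, so the stretch lies within it. It holds a STAT motif. Each of the 300-base promoters (250 bases before and 50 after a gene's start) was searched on both strands for a STAT motif (TTCNNNGAA), an NF-kB motif (GGGATTTTCC, with any base allowed at the fifth letter), an AP-1 motif (TGANTCA) and a cAMP response element (TGACGTCA). Of 32851 mouse promoters of that length, 8.3% held the STAT motif, 0.411% the NF-kB motif, 7.81% the AP-1 motif and 1.79% the cAMP response element. In Socs3 the STAT motif lay at -154 to -146 from the start. In Il6 the NF-kB motif lay at -44 to -35 and the AP-1 motif at -249 to -243. The Osmr promoter held an AP-1 motif just after its start, and the other entries matched none of the motifs. The annotated gene reaches 655 bases upstream of the Osmr start, and 38962 and 49932 bases upstream of the 2 Lifr starts. These entries therefore lie within their genes and do not cover the sequence before the first annotated base.

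Across genes, control 5 was most like a minor trauma array, number 2 (r = 0.983), and the lowest array weight, 0.177, was that of minor trauma 3, so results that rest on either array are given with and without it. The 9 hepatocyte markers, most of them near the top of the normalized scale, had a summed linear level of 68607 to 76707 over all arrays. At 4.5 h Tat was higher than control (0.63) and Tdo2 (-0.20) and Cps1 (-0.19) were lower. The summed level of 10 neutrophil markers ran from 114 to 440 in control, 307 to 607 in minor trauma, 541 to 2500 in shock, 2971 to 4636 at 1 h and 4375 to 4954 at 4.5 h. Of the 8 neutrophil markers tested, 2 were higher than control in minor trauma, 7 in shock and 8 at both times of resuscitation. Of all genes tested, 2.07%, 2.03%, 4.61% and 15.1% were higher in the same order of groups. Cxcr2 and Camp were at or below the array median on every control, minor trauma and shock array. The summed level of 10 Kupffer cell markers was 3562 to 5508 in control, 3862 to 6062 in minor trauma, 4111 to 4740 in shock, 2930 to 3785 at 1 h and 1467 to 2022 at 4.5 h, when 9 of the 10 were lower than control. The other Kupffer cell marker, Marco, was higher than control at 4.5 h (1.36). At that time 23.8% of all genes tested were lower than control and 15.1% higher. For 8 markers of sinusoidal endothelium the summed level was 2007 to 2811 in control and 1463 to 1642 at 4.5 h, when 6 of the 8 were lower and Lyve1 was higher. Markers of stellate cells summed to 2108 to 3046, and those of lymphocytes to 35.1 to 63.8, over all arrays. The part of these changes in cell markers in the results below was not tested, and in whole liver fewer cells of a type and less RNA per cell cannot be told apart.

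Levels are given as log2(signal + 6) after quantile normalization, on which scale the median of every array was 4.60. A gene was called where limma's p, adjusted by Benjamini-Hochberg over all genes tested in that comparison, was 0.05 or less, and a change is given as a log2 difference with its standard error. Over the 5 groups, 7 of the 9 genes differed by limma's F test, against 45.4% of all genes tested. The 2 that did not pass were Il6ra (adjusted p = 0.216) and Lifr (adjusted p = 0.167).

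**Figure D1:**
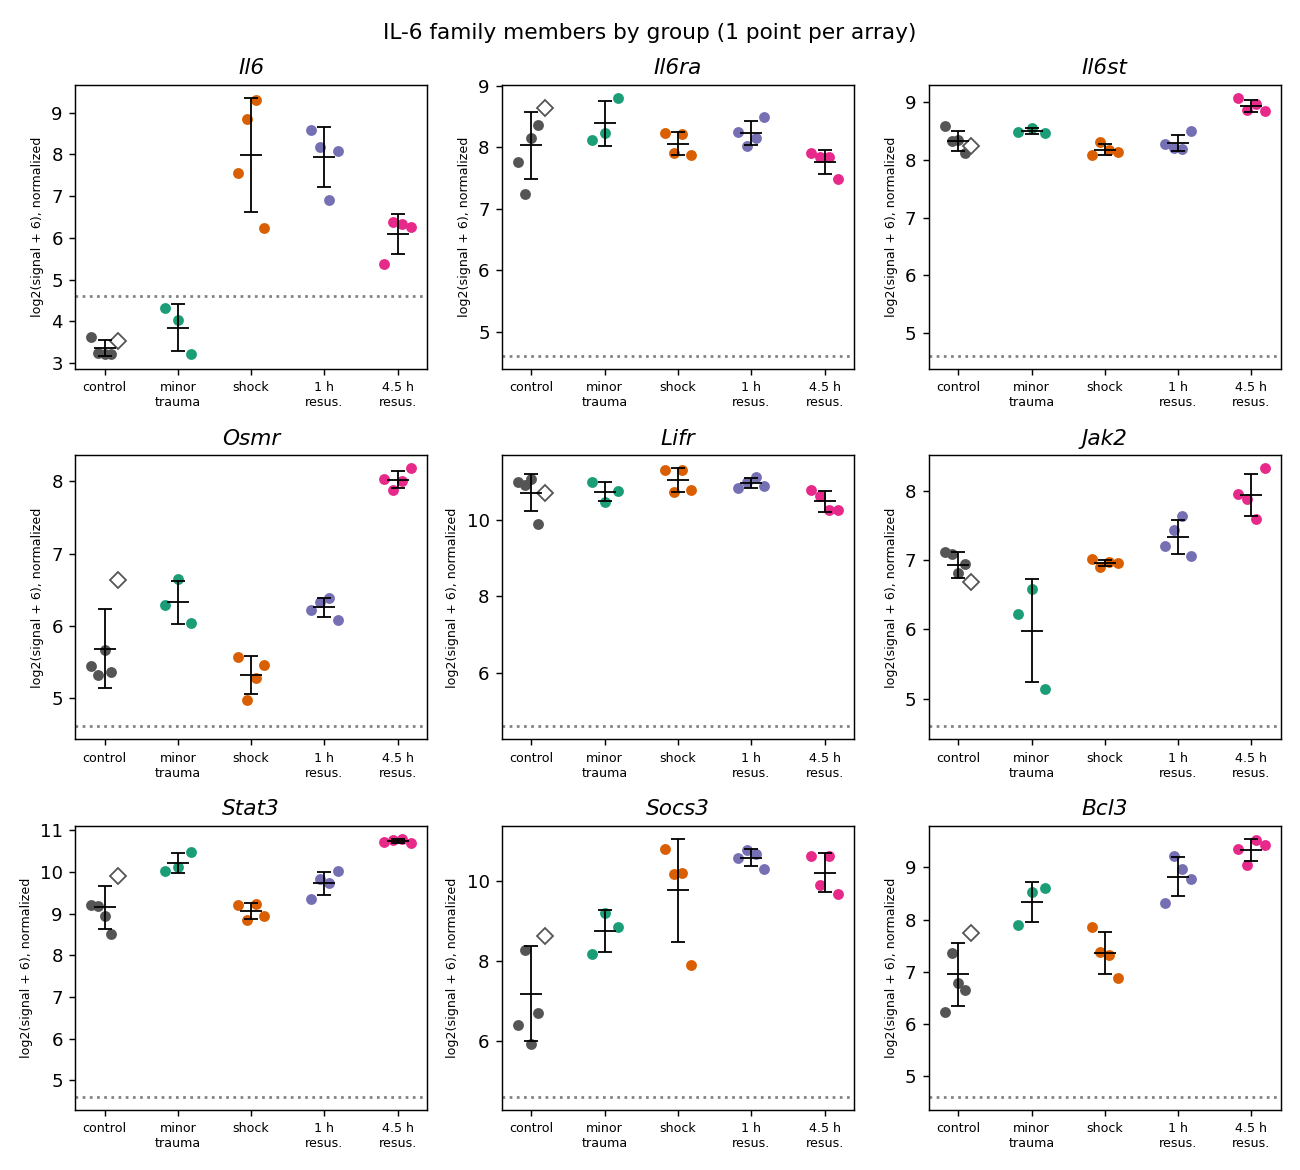
Level of each gene on every array, as normalized log2(signal + 6), in the 5 groups. Each point is 1 array, the open diamond is control array 5, bars are the mean ± SD, and the dotted line is the array median of 4.60; Il6 lies below that line on all control and minor trauma arrays and above it on all others.

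The genes called were not the same at each time, and the 4 injured groups were all set against the same 5 control arrays. In shock 2 of the 9 genes were called, Il6 and Socs3, both higher, where 3.11% of all genes tested were called, 2.03% higher and 1.08% lower. After 1 h of resuscitation 3 were called, Il6, Socs3 and Bcl3, all higher, where 9.91% of all genes were called, 4.61% higher and 5.31% lower. After 4.5 h 7 of the 9 were called and all 7 were higher, at a time when 38.9% of all genes were called, 15.1% higher and 23.8% lower. Il6ra and Lifr were the 2 that were not called at any of these times. The adjusted cut is looser in a comparison where more genes pass, so these counts do not share 1 threshold. At an unadjusted p under 0.05 by limma they were 2 in shock, 5 at 1 h and 7 at 4.5 h. Of all 12832 genes 1823, 2879 and 5968 passed that cut in the same order. The median log2 change of the 9 genes against control was 0.49 after minor trauma, 0.03 after shock, 0.57 after 1 h and 1.59 after 4.5 h of resuscitation. For all genes tested it was -0.002, -0.03, -0.07 and -0.09 in the same order.

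**Figure D2:**
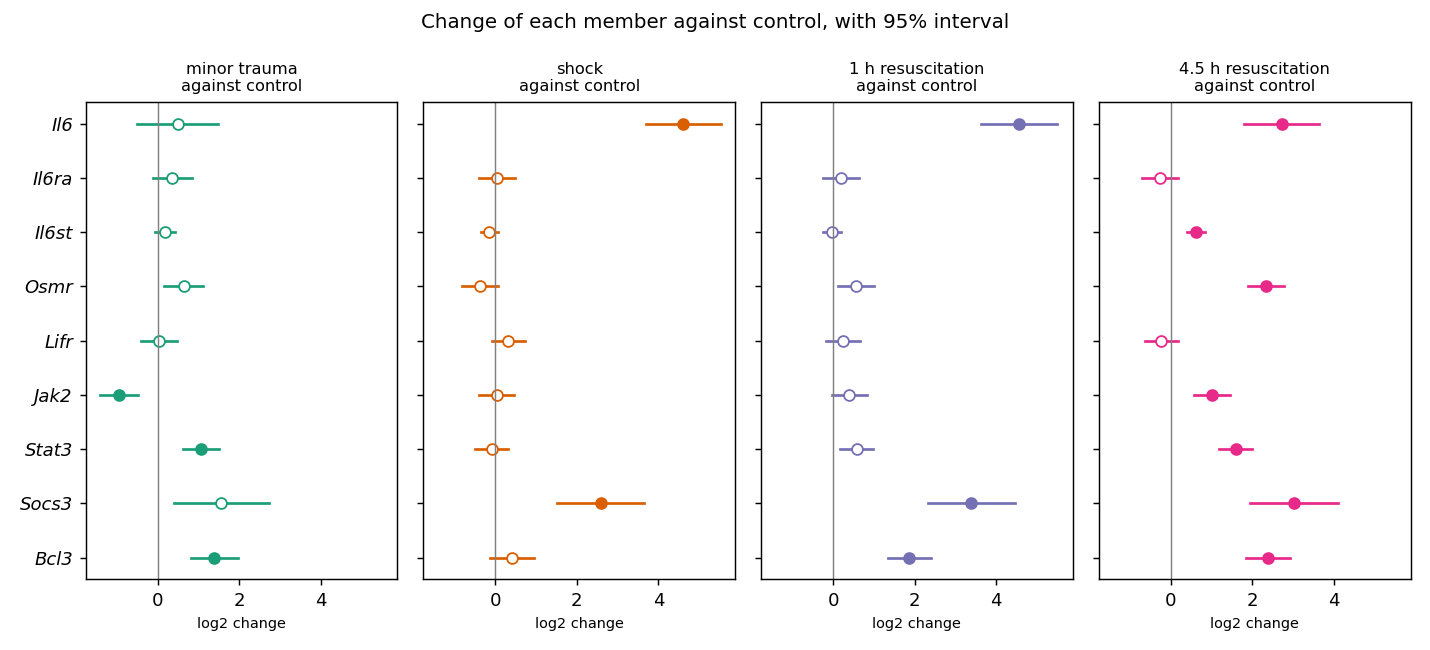
Log2 change of each of the 9 genes against control in the 4 injured groups, with the 95% interval from limma. Filled points were called (adjusted p of 0.05 or less); there are 3 such points for minor trauma, 2 for shock, 3 for 1 h and 7 for 4.5 h.

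Il6, the ligand, was low in control and minor trauma liver and high at the end of shock. On the 5 control arrays its level was 3.63, 3.25, 3.21, 3.23 and 3.53, and on the 3 minor trauma arrays 4.32, 4.03 and 3.22. On the 4 shock arrays it was 7.56, 8.84, 9.29 and 6.24. The lowest shock array lay far above the highest control array, while minor trauma overlapped control. After 1 h of resuscitation the arrays read 8.58, 8.17, 6.90 and 8.09, and after 4.5 h 5.38, 6.37, 6.33 and 6.27. All 8 resuscitation arrays exceeded every control and minor trauma array, and the 4.5 h arrays lay below all 1 h arrays. Because Il6 was at or below the array median on all control and minor trauma arrays, its fold change is a lower bound, taken from the array median. It was at least 10.4-fold higher in shock than in control (adjusted p = 5.58e-07, limma), and at least 2.80-fold higher at 4.5 h. It was also called higher at 1 h (adjusted p = 3.02e-07). From 1 h to 4.5 h Il6 fell by 1.84 ± 0.47 (SE) on the log2 scale (adjusted p = 0.00439), while 1 h and shock differed by -0.05 with a 95% interval of -1.02 to 0.92. In order of mean level, control (3.37) and minor trauma (3.85) did not differ beyond their spread, 4.5 h (6.09) came next, and 1 h (7.93) and shock (7.98) did not differ. Il6 passed the filter on dim probe sets only through the shock and resuscitation groups. The summed level of Kupffer cell markers was lower at 4.5 h than at 1 h on every array, beside the lower Il6. The sum for sinusoidal endothelium was lower too (1463 to 1642 against 2238 to 2737). The Kupffer cell sum was also lower at 1 h (2930 to 3785) than in shock (4111 to 4740), while Il6 did not differ. Of its 10 markers, 0 were called between these groups, and their median log2 change was -0.36. The part of these sums in the level of Il6 was not tested.

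Il6ra encodes the chain that binds interleukin-6 itself, and no change in its level was called in any of the 7 comparisons. Its control arrays read 7.76, 7.23, 8.15, 8.35 and 8.64, its minor trauma arrays 8.12, 8.24 and 8.80, and its shock arrays 8.23, 7.91, 8.21 and 7.88. At 1 h it read 8.24, 8.02, 8.15 and 8.49, and at 4.5 h 7.91, 7.83, 7.84 and 7.47. The control arrays alone spanned more than the distance between any pair of group means. The change at 4.5 h against control was -0.26, with a 95% interval of -0.70 to 0.18, and the second probe set differed by -0.21 in the same comparison.

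Il6st encodes gp130, the signal-transducing chain, and rose late and by a small amount. The control arrays read 8.59, 8.33, 8.34, 8.12 and 8.24, the shock arrays 8.09, 8.31, 8.17 and 8.14, and the 1 h arrays 8.28, 8.21, 8.19 and 8.50. At 4.5 h they read 9.07, 8.86, 8.96 and 8.85, above every other array of the series. The minor trauma arrays, at 8.48, 8.56 and 8.46, lay within the control range. At 4.5 h the change against control was 0.61 ± 0.10 (SE), or 1.53-fold (adjusted p = 8.3e-05), and against 1 h it was 0.64 ± 0.11. Of the 3 other probe sets of Il6st, 2 were also called higher at 4.5 h against control, by 0.48 and 0.62. The third, which was near the array median, read 0.59 higher without passing (adjusted p = 0.067). With the values as deposited the 4.5 h change against control was 0.41 and was not called (adjusted p = 0.318). Shock arrays all lay below minor trauma arrays, a change of -0.32 that was not called (adjusted p = 0.09 by limma). It was called with the mean of kept probe sets (-0.48, adjusted p = 0.0295). The 2 other probe sets called at 4.5 h were called lower in shock than in minor trauma (-0.61, adjusted p = 0.0159, and -0.69, adjusted p = 0.0331, by limma). The third was not (-0.29).

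Osmr, the receptor chain for oncostatin M, showed the largest late rise among the receptor genes. Its control arrays read 5.44, 5.32, 5.66, 5.36 and 6.64, the last being control 5, and its shock arrays 5.57, 4.97, 5.28 and 5.45. Minor trauma arrays read 6.28, 6.64 and 6.04, and 1 h arrays 6.22, 6.33, 6.39 and 6.08. At 4.5 h they read 8.03, 7.88, 8.00 and 8.18. The 4.5 h arrays stood clear of all others, and apart from control 5 the control and shock arrays lay below all minor trauma and 1 h arrays. At 4.5 h Osmr rose by 2.34 ± 0.21 (SE) against control, or 5.07-fold (adjusted p = 2.47e-08), and by 1.77 ± 0.22 against 1 h. Shock was lower than minor trauma by 1.01 on the log2 scale (change -1.01 ± 0.24, adjusted p = 0.0112). The gene's 2 other kept probe sets, both with a mean below the array median, were called higher at 4.5 h against control, by 1.03 and 1.38. The dimmer of them, at 1.38, was above the array median on only 3 arrays, all at 4.5 h. It passed the filter on dim probe sets only through that group. Between shock and minor trauma these 2 probe sets differed by -0.16 and -0.58 and were not called (adjusted p = 0.77 and 0.415 by limma). The mean of kept probe sets gave -0.58 there (adjusted p = 0.0689). The rise from shock to 1 h, 0.94 ± 0.22, was called at an adjusted p of 0.0371, and the call was lost when any 1 of 7 arrays was left out (shock 2, 3 or 4, or any 1 h array). Without control 5, Osmr was also called higher in minor trauma (0.88, adjusted p = 0.00184) and at 1 h (0.81).

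Lifr, the receptor chain for leukemia inhibitory factor, gave answers that depended on the probe set. Probe sets are numbered by brightness, and probe set 1, which stands for the gene, read 10.99, 10.89, 11.06, 9.88 and 10.70 in control and 10.78, 10.63, 10.24 and 10.24 at 4.5 h. These ranges overlapped, and the change of -0.23 had a 95% interval of -0.64 to 0.18 and was not called, although it was when control 4 was left out. Probe set 2 read 10.47, 9.84, 9.99, 9.0 and 9.34 in control and 8.71, 8.20, 8.27 and 8.54 at 4.5 h. Here the groups did not overlap, and the level fell by 1.30 on the log2 scale (adjusted p = 0.000667 in the fit over all kept probe sets). The distance between both probe sets differed between 4.5 h and control by -1.07 (two-sided exact permutation p = 0.00794, the smallest that 126 arrangements allow, adjusted p = 0.0238 over 6 such tests). The pairs of probe sets tested here and for Stat3 were chosen after their values were seen. On minor trauma arrays probe set 2 read 9.29, 9.02 and 7.90, in shock 9.73, 9.94, 10.10 and 9.31, and at 1 h 9.35, 9.29, 9.78 and 9.53.

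Jak2, the kinase, was lower in minor trauma and higher late in resuscitation. Its control arrays read 7.12, 7.09, 6.82, 6.94 and 6.69 and its minor trauma arrays 6.22, 6.58 and 5.15. Shock arrays read 7.01, 6.90, 6.97 and 6.95, and 1 h arrays 7.21, 7.43, 7.63 and 7.06. At 4.5 h they read 7.95, 7.88, 7.59 and 8.32. All minor trauma arrays lay below all control arrays, array 3 by the widest margin, and all 4.5 h arrays lay above all control arrays. At 4.5 h Jak2 rose by 1.01 ± 0.21 (SE) against control (adjusted p = 0.00062). In minor trauma it fell by 0.95 on the log2 scale (adjusted p = 0.0289). That call was lost without minor trauma array 3, where the change was -0.53 (adjusted p = 0.191), and also without control 1, 2 or 3. Shock exceeded minor trauma by 0.98, which also was not called without that array. The other probe set of Jak2 differed by -0.87 in minor trauma without being called (adjusted p = 0.198), and the minor trauma call was also lost with the mean of kept probe sets (adjusted p = 0.0647) and with the values as deposited (adjusted p = 0.266). That probe set rose by 1.33 at 4.5 h and followed the first closely over the 20 arrays (r = 0.90, given as a description).

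Stat3, the transcription factor at the centre of the pathway, rose in minor trauma and at 4.5 h, and was at the control level in shock. Probe set 1, which stands for it, read 9.21, 9.17, 8.95, 8.51 and 9.91 in control, the last being control 5. Minor trauma arrays read 10.02, 10.13 and 10.48, and shock arrays 9.21, 8.85, 9.23 and 8.94. At 1 h it read 9.34, 9.82, 9.73 and 10.01, and at 4.5 h 10.71, 10.77, 10.79 and 10.68. The 4.5 h arrays were the highest of the series and close to each other, all minor trauma arrays exceeded all control arrays, and shock lay inside the control range. Against control Stat3 rose by 1.06 ± 0.21 (SE) in minor trauma (adjusted p = 0.0153) and by 1.59 ± 0.19 at 4.5 h, or 3.01-fold (adjusted p = 1.41e-06). The change in shock was -0.09, with a 95% interval of -0.49 to 0.31, and shock was below minor trauma by 1.15 (change -1.15 ± 0.22, adjusted p = 0.00254). The minor trauma call was lost without minor trauma array 3 (0.92, adjusted p = 0.107). At 1 h the change of 0.58 did not pass (adjusted p = 0.0641), and it passed when control 5, minor trauma 3 or 1 h array 1 was left out.

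The probe sets of Stat3 did not move together. Over the 20 arrays probe set 2 tracked probe set 1 (r = 0.985) whereas probe set 3 did not (r = 0.08), both given as descriptions. Probe set 3 read 5.54, 5.66, 5.25, 5.69 and 6.14 in control, 7.26, 7.44, 6.90 and 6.50 in shock, and 7.57, 6.83, 6.86 and 7.11 at 1 h. Every shock and 1 h array exceeded every control array. It rose by 1.37 ± 0.21 (SE) in shock (adjusted p = 0.000393 in the fit over all kept probe sets), by 1.44 at 1 h and by 0.80 at 4.5 h. From 1 h to 4.5 h it fell (change -0.64, adjusted p = 0.0402 in the same limma fit), where probe set 1 rose. Between shock and minor trauma it differed by 0.77 without being called (adjusted p = 0.053 by limma). The distance between it and probe set 1 differed from control by 1.46 in shock (two-sided exact permutation p = 0.0159, adjusted p = 0.0318 over the 6 tests) and by -0.79 at 4.5 h (p = 0.00794 from the exact permutation test, adjusted p = 0.0238). Because probe set 3 was taken as the one least correlated with probe set 1, these permutation p-values are descriptions only. Probe set 4, near the array median, was not called in any comparison. Which transcripts of Stat3 each probe set measures was not analysed here.

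**Figure D3:**
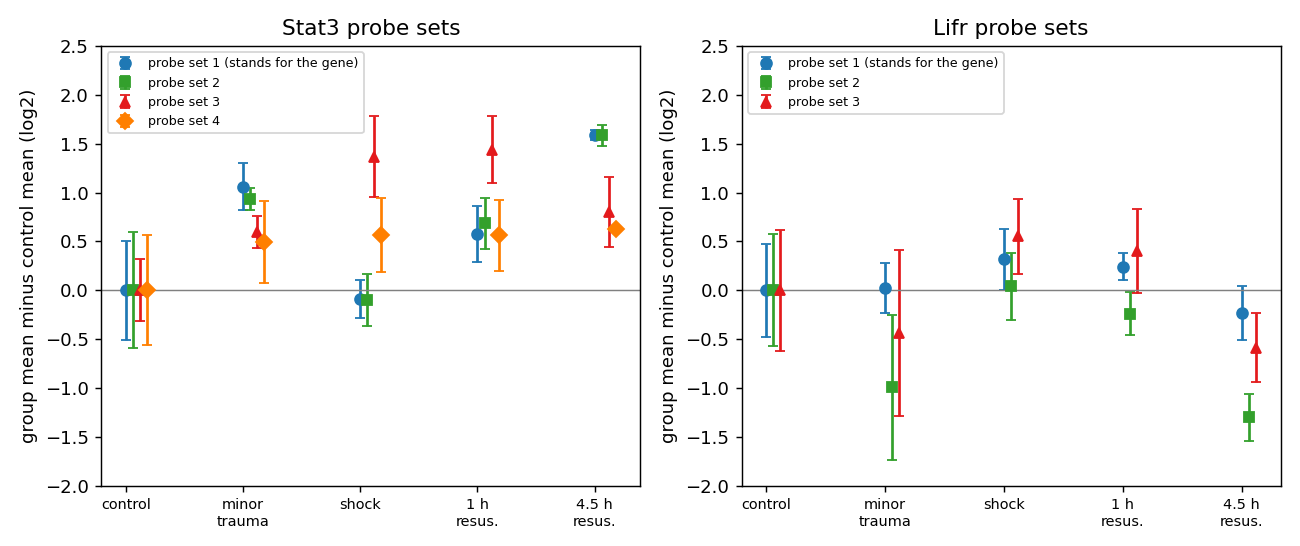
Group mean minus control mean (log2, normalized) for each probe set of Stat3 and of Lifr, numbered by brightness, with bars of 1 SD over the arrays of the group. For Stat3, probe set 3 stands highest in shock (1.37) and at 1 h (1.44) while probe set 1 does so at 4.5 h (1.59); for Lifr, probe set 2 lies at -1.30 at 4.5 h.

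Socs3, the feedback inhibitor, was high from the end of shock onward. Its control arrays read 6.40, 8.28, 5.92, 6.69 and 8.61, a wide range with control 2 and control 5 at the top. Minor trauma arrays read 8.17, 9.19 and 8.85, and shock arrays 10.80, 10.17, 10.20 and 7.89. At 1 h it read 10.56, 10.77, 10.67 and 10.30, and at 4.5 h 10.63, 9.88, 10.62 and 9.68. All resuscitation arrays exceeded all control arrays, whereas shock array 4 fell inside the control range. Against control Socs3 rose by 2.58 ± 0.52 (SE) in shock, or 6.00-fold (adjusted p = 0.00517), by 3.40 ± 0.52 at 1 h, or 10.5-fold, and by 3.02 ± 0.52 at 4.5 h, or 8.13-fold. In minor trauma the level was 1.56 ± 0.56 above control without passing (adjusted p = 0.116), and it passed without control 5 (1.91, adjusted p = 0.0274). With all arrays in, it also passed by limma with the values as deposited (1.83, adjusted p = 0.00156) and with median centring (1.77, adjusted p = 0.0349). With replicate number as a block it passed too (1.68, adjusted p = 0.0382 by limma). In order of mean level (control, minor trauma, shock, 4.5 h, 1 h) no pair of neighbours differed beyond its spread. All 3 probe sets of Socs3 were called higher in shock, at 1 h and at 4.5 h, by 2.04 to 3.40.

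Bcl3 encodes a nuclear protein of the IkB family that acts with NF-kB subunits. It read 6.22, 7.36, 6.78, 6.66 and 7.74 in control, 7.90, 8.52 and 8.60 in minor trauma, and 7.86, 7.38, 7.32 and 6.88 in shock. At 1 h it read 8.32, 9.21, 8.98 and 8.79, and at 4.5 h 9.35, 9.04, 9.53 and 9.43. All minor trauma, 1 h and 4.5 h arrays lay above all control arrays, and shock overlapped control. Bcl3 rose by 1.39 ± 0.28 (SE) in minor trauma (adjusted p = 0.0156), by 1.87 ± 0.26 at 1 h and by 2.39 ± 0.26 at 4.5 h, or 5.23-fold. Without minor trauma array 3 the first of these was 1.26 and was not called (adjusted p = 0.107). In shock the change was 0.41, with a 95% interval of -0.13 to 0.95. The rise from shock to 1 h was 1.46 ± 0.27 (adjusted p = 0.00572). Shock was lower than minor trauma (change -0.98 ± 0.29, adjusted p = 0.0378), a call that was lost without minor trauma 2 or 3 or without shock 2, 3 or 4.

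Minor trauma against control sets the minor trauma group, sampled at a time the labels do not give, beside non-manipulated animals. Stat3 and Bcl3 rose and Jak2 fell, so that 3 of the 9 genes were called, against 3.44% of all genes tested (2.07% higher and 1.37% lower). The count moved with single arrays, and so did the number of all genes called, which was 441 with all arrays. Without control 1, 2 or 3 it was 2 genes, with Jak2 lost. Without control 5 it was 5 genes, with Osmr and Socs3 added, while calls over all genes went to 1220. Without minor trauma array 3 it was 0 by limma, with 5 genes at an unadjusted p under 0.05, and none of all 12832 genes tested was called either (1686 at an unadjusted p under 0.05). With control 5 and minor trauma array 3 both left out it was 3 genes, namely Osmr, Stat3 and Bcl3, beside 794 of all genes.

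**Figure D4:**
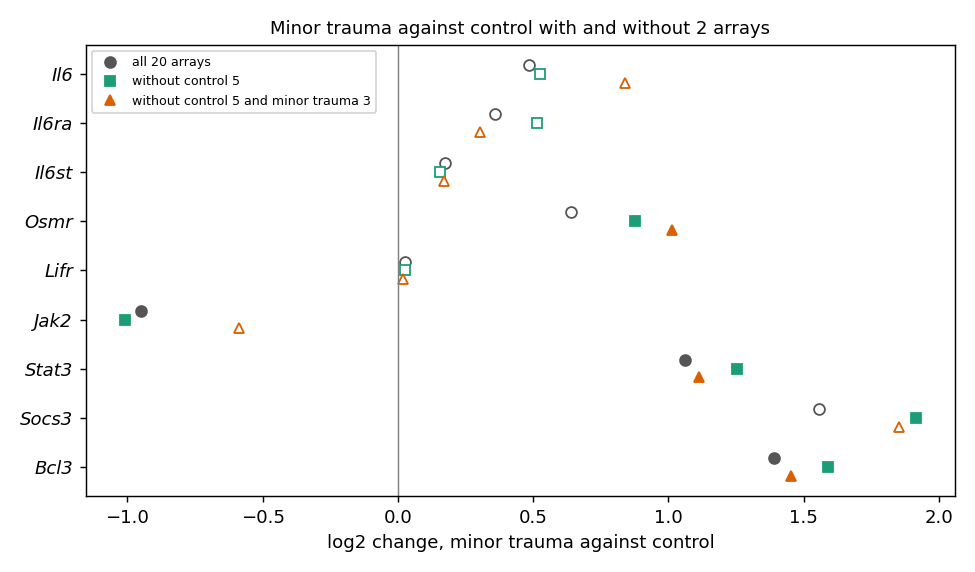
Log2 change of each gene in minor trauma against control with all 20 arrays, without control 5, and without control 5 and minor trauma 3. Filled symbols were called; Osmr moves from 0.64 to 0.88 and 1.01, and Jak2 from -0.95 to -1.01 and -0.59.

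In shock with severe trauma against minor trauma 5 of the 9 genes were called (9.55% of all genes tested, 4.18% higher and 5.38% lower). These groups differ in shock and in the severity of trauma, and the sampling time of minor trauma is not given. Such differences cannot be told apart here. Il6 was at least 10.4-fold higher in shock and Jak2 was higher, while Osmr, Stat3 and Bcl3 were lower. Probe set 3 of Stat3 read 0.77 higher in shock without being called. Other probe sets were called higher in shock for Lifr (1.035) and lower for Il6st (-0.61 and -0.69). The probe sets that stand for these genes were not called. Without minor trauma array 3 the count was 3, and Jak2 and Bcl3 were the 2 genes lost. The first hour of resuscitation against shock gave 2 calls, Osmr and Bcl3, both higher (1.25% of all genes tested, 0.873% higher and 0.374% lower). From 1 h to 4.5 h 5 genes were called (33.1% of all genes tested, 14.9% higher and 18.2% lower): Osmr, Stat3, Il6st and Jak2 rose and Il6 fell. Stat3 is counted here by probe set 1, whereas its probe set 3 was called lower (-0.64). Lifr is not counted by its probe set 1, whereas its probe sets 2 and 3 were called lower (-1.06 and -0.99). The rise of Jak2 over that interval, 0.61 ± 0.22 (SE), had an adjusted p of 0.0395 and was lost when any 1 of 6 arrays was left out (1 h arrays 1, 2 or 4, or 4.5 h arrays 1, 2 or 4).

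Of 15 other ligands and receptors of the family, 9 were tested. Against control 1 was called lower in minor trauma, none was called in shock or at 1 h, and 2 were called higher and 1 lower at 4.5 h. Over all genes 3.44%, 3.11%, 9.91% and 38.9% were called in these 4 comparisons. At an unadjusted p under 0.05 the limma counts were 0 in shock and 1 at 1 h. At 4.5 h Ebi3, a subunit shared by cytokines of the interleukin-12 family, rose by 1.20 ± 0.26 (SE), and Adam17, the protease that sheds the interleukin-6 receptor, rose by 0.86 ± 0.13. Ctf1, which encodes cardiotrophin-1, fell by 0.80 on the log2 scale. Adam10, a related protease, was lower in minor trauma (-0.87), a call that was lost when any 1 of 16 arrays was left out. The ligands Lif and Osm were dim, with group means of 4.17 to 4.64 for Lif and 3.47 to 4.55 for Osm, where the array median was 4.60. Il11 and Il31ra were too dim to be tested.

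Of the other kinases, STATs and inhibitors 20 were tested. Of these, 2 were higher than control in minor trauma and 0 were called in shock (2 at an unadjusted p under 0.05 by limma). At 1 h 3 were higher, and at 4.5 h 9 were higher and 1 lower. Over all genes 3.44%, 3.11%, 9.91% and 38.9% were called in these 4 comparisons. The feedback inhibitors Socs2 and Socs1 rose at 4.5 h by 2.28 ± 0.46 and 2.23 ± 0.44 (SE). Ptpn2, a phosphatase that acts on STATs and Janus kinases, rose by 1.12 at 1 h and 1.74 at 4.5 h. Stat2, of interferon signalling, rose by 1.61 ± 0.22 at 4.5 h and was lower in shock than in minor trauma (-1.05). Cish, an inhibitor of STAT5 signalling, was 1.21 higher at 1 h, a call lost when any 1 of 6 arrays was left out, and fell by 1.57 from 1 h to 4.5 h. At 1 h the count was 5 without 1 h array 1 and 1 without 1 h array 3. With the values as deposited 5 genes in place of 9 were called higher at 4.5 h, and 9 in place of 14 of the transcription factors and survival genes described next.

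Transcription factors and survival genes that are known STAT3 targets or Bcl3 partners were already called in shock. Of 16 tested, 8 were higher than control in shock, 14 at 1 h and 14 at 4.5 h, and none was lower. In minor trauma 5 were higher. Of all genes tested, 2.03%, 4.61%, 15.1% and 2.07% were called higher in the same order of groups. At an unadjusted p under 0.05, 1 of the 16 was lower in shock, 0 at 1 h, 0 at 4.5 h and 1 in minor trauma by limma. Fos, an immediate early gene, was 4.34 ± 0.26 (SE) above control in shock, or 20.3-fold, and 3.82 above it at 1 h, and it fell by 2.33 from 1 h to 4.5 h. Junb rose by 2.55 in shock and 2.81 at 1 h. Nfkbiz, another nuclear protein of the IkB family, rose by 2.02 in shock, 3.52 at 1 h and 2.27 at 4.5 h. Irf1, a factor of interferon responses, was 2.39 higher at 1 h than in shock and fell by 1.62 by 4.5 h. Timp1, an inhibitor of matrix proteases, was at least 4.51-fold higher at 4.5 h than in control.

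Acute phase genes, the textbook hepatic targets of interleukin-6, were called mostly in minor trauma and at 4.5 h. Of 25 tested, 10 were higher than control after minor trauma and 1 after shock. After 1 h and 4.5 h of resuscitation 7 and 19 were higher, and none was lower in any of the 4 groups. Of all genes tested, 2.07%, 2.03%, 4.61% and 15.1% were called higher in these 4 comparisons, and 1.37%, 1.08%, 5.31% and 23.8% lower. At an unadjusted p under 0.05, 1 of the 25 was lower in minor trauma and 0 in the other 3 groups by limma. The 1 gene called in shock was Cd14, a receptor for bacterial lipopolysaccharide, at 2.63 ± 0.29 (SE). Against minor trauma, shock was lower for 12 of the 25 and higher for 1, where 5.38% of all genes were lower and 4.18% higher. Among the 12 were Lcn2, a siderophore-binding protein also made by neutrophils (-3.77), and Orm2, an orosomucoid (-2.80). At 4.5 h A2m, a protease inhibitor, was at least 41.7-fold higher than in control, where it was at or below the array median on all 5 arrays. Saa3, a serum amyloid A, was 4.91 ± 0.42 above control at 4.5 h, or 30.1-fold, and Lcn2 was 5.29 ± 0.79 above it, or 39.2-fold. The median log2 change of the list was 0.67 after minor trauma, 0.05 after shock, 0.16 after 1 h and 0.79 after 4.5 h of resuscitation. Without control 5 the counts were 16 for minor trauma, 2 for shock and 11 for 1 h, and the 1 h count was 4 without control 4, 1 h array 3 or 1 h array 4. Without minor trauma array 3 no gene of any of the 4 lists was called against control in that group; at an unadjusted p under 0.05 limma then gave 19 of the acute phase genes, 7 of the transcription factors and survival genes, 4 of the kinases, STATs and inhibitors and 2 of the ligands and receptors. Shock was then lower than minor trauma for 6 of the 25 acute phase genes in place of 12. The neutrophil and Kupffer cell marker sums given above moved over the same groups, and their part in these counts was not tested.

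**Figure D5:**
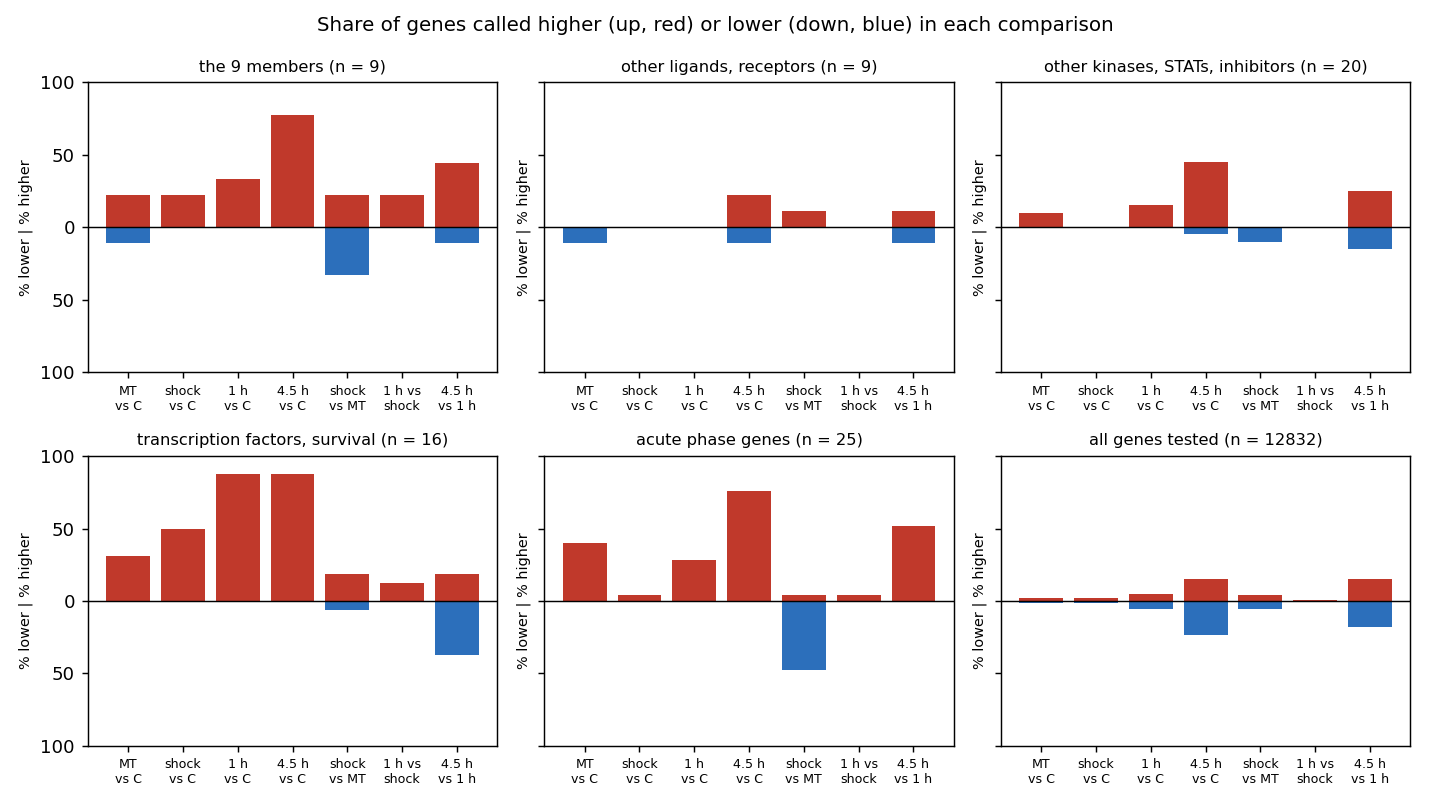
Percentage of tested genes called higher (red, upward) or lower (blue, downward) in each of the 7 comparisons, for the 9 genes, 4 lists of other pathway genes and all 12832 genes tested; C is control and MT minor trauma. Transcription factors and survival genes are called in shock (8 of 16), acute phase genes in minor trauma (10 of 25) and at 4.5 h (19 of 25).

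Genes whose level over the 20 arrays was most like that of each member were ranked by Pearson correlation, given as a description of arrays that share their groups. For Il6 they were Il10 (r = 0.98), Il1b (0.96) and Cxcl2 (0.95), which encode cytokines and a chemokine. For Stat3 they were Litaf (0.97), Tacc2 (0.97) and Slc39a14 (0.95), a zinc importer. For Socs3 they were Fosl2 (0.93), Tiparp (0.91) and Pdk4 (0.91), and for Bcl3 Hmox1 (0.93), Steap4 (0.93) and Pde12 (0.92). Osmr was most like Heatr1 (0.96), Flvcr1 (0.95) and Bmper (0.95), and Il6st was most like Stat2 (0.96), Adar (0.94) and Cdhr4 (0.93). Jak2 was most like Avl9 (0.94), Crem (0.93) and Fam162a (0.92). For Il6ra and Lifr the highest values were 0.84 (Slc37a4) and 0.83 (Adgrf1). After group means were subtracted, Il6 and Il10 correlated at 0.82, Stat3 and Slc39a14 at 0.91, and Osmr and Heatr1 at 0.71. Among the 9 genes themselves the closest pair was Stat3 and Osmr (r = 0.89, and 0.54 after group means were subtracted), and Socs3 and Bcl3 stood at 0.76 (0.78 after group means were subtracted).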

How the data were processed

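The deposited table holds 1 intensity per probe set and array on a linear scale, made by the authors using MAS5 (named in the submitters' processing notes; version not given in the sources used here), from total RNA of whole liver copied with oligo-dT primers per the labels' protocols. The arrays were not scaled to each other: their 2% trimmed means ran from 64.9 to 167. Here log2(signal + 6) was quantile normalized, and probe sets above the median of their own array on at least 3 arrays were kept (27274 of 45101). Names came from the platform annotation; 34945 probe sets had 1 gene, 932 several and 9160 none, and 64 were controls. Each gene was represented by its brightest kept probe set (by mean). The 5 group means were fitted over all 20 arrays with limma 3.58.1 in R 4.3.3 (eBayes with an intensity trend), with Benjamini-Hochberg adjustment over 12832 genes in each of 7 comparisons; 3 further pairs of groups were used only for the order of levels. A fold is a bound where the lower group was at or below the array median on every array. Single differences between probe sets were tested by exact permutation of arrays.

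The 9 genes were fixed by symbol and the lists of pathway genes and cell markers written from general knowledge; the members and lists were chosen with earlier results of these data known. Named list genes were up to 4 per list and comparison with the largest change among those called, and the 3 genes most like each member by Pearson correlation; Lif, Osm and the probe set pairs were chosen after their values were seen. Replicate numbers did not pair the arrays: after group means were subtracted, 3 of 36 pairs of same-numbered arrays correlated above 0.1 (range -0.08 to 0.17), so no block was used. The poly-A control dap was high on 10 arrays and low on 10, spread over the groups; its use as a block and the fits within each set, other scalings, filters, variance models and left-out arrays were the alternatives tried. The fit was tested on simulated data. Figures used matplotlib 3.10.9 in python 3.11.15.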

Additional observations from a re-analysis of the deposited data

Results flagged for a closer look

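Of 36 groups of 4 or 5 arrays checked (the 9 genes in 4 groups each), 3 held an array far from the rest, where chance gives about 1 in 20 groups. Il6 read 5.38 on 4.5 h array 1 and 6.27 to 6.37 on the other 3 arrays of that time. Il6ra read 7.47 on 4.5 h array 4 and 7.83 to 7.91 on the other 3. Osmr read 6.64 on control array 5; the remaining control arrays read 5.32 to 5.66, while minor trauma read 6.04 to 6.64. Control 5 was also the highest control array for Il6ra (8.64), Stat3 (9.91), Socs3 (8.61) and Bcl3 (7.74), and the lowest for Jak2 (6.69). No cause was tested.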

How the results depend on the processing

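No change of any of the 9 genes that was called turned its direction under any alternative. The alternatives kept the probe set that stands for each gene, except for the mean of kept probe sets. Taken alone, probe set 3 of Stat3 was called in the other direction from 1 h to 4.5 h (-0.64). Of the counts of called genes among the 9 recomputed under an alternative, 259 lay within 1.5 times the count reported, 23 were lower and 6 higher. The F test count was 7 or 8 when single arrays were left out. The high dap set holds 2 minor trauma arrays and the low dap set 1, so only changes are given for that group in the low set. Against control they were 0.76 for Stat3, 1.61 for Bcl3 and -0.29 for Jak2. In minor trauma against control (3) the count was 5 with the replicate block (1143 of all genes) and 1 within the high dap set (203 of all genes). Leaving out single arrays gave counts of 0 to 5. In shock against control (2) it was 1 within the low dap set (55 of all genes). At 1 h against control (3) it was 5 with array weights, with the replicate block and with control 5 and minor trauma 3 both left out, and 1 within the low dap set (287 of all genes); single arrays left out gave 3 to 5. In shock against minor trauma (5) it was 3 within the high dap set (243 of all genes) and 3 with both arrays left out (1044 of all genes). Within the low dap set the changes were 2.95 for Il6, 0.40 for Jak2, -1.15 for Osmr, -1.04 for Stat3 and -1.15 for Bcl3. The count was 3 to 5 without single arrays. At 1 h against shock (2) it was 1 with the values as deposited, with median centring, with no filter, with the mean of kept probe sets and with no intensity trend, and 0 within the low dap set (2 of all genes; 2 of the 9 at an unadjusted p under 0.05 by limma); single arrays left out gave 1 to 3. At 4.5 h against 1 h (5) it was 2 with the values as deposited, and 4 to 6 without single arrays. The sets hold 10 arrays each, so fewer samples enter those fits; the cause of the other moves was not tested. With the values as deposited the median of all genes shifted to 0.20 in minor trauma and -0.27 at 4.5 h, and all-gene calls were 231 in place of 441 in minor trauma, 199 in place of 399 in shock, 482 in place of 1272 at 1 h, 2917 in place of 4996 at 4.5 h, 372 in place of 1226 for shock against minor trauma, 76 in place of 160 for 1 h against shock and 1731 in place of 4251 for 4.5 h against 1 h. With the mean of all kept probe sets Lifr was called lower at 4.5 h (-0.71), and Stat3 was not called between shock and minor trauma (-0.34) or from 1 h to 4.5 h (0.33).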
